A study of Mus musculus with 4 samples.

Results

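The MHC class I antigen presentation genes H2-K1, H2-D1, B2m, Tap1, Tap2, Tapbp, Psmb8, Psmb9, Psmb10 and Nlrc5 were followed in murine 4T1 triple-negative breast cancer (TNBC) cells exposed to an iron chelator. They were found by their symbols in the deposited expression table, and each of the 10 symbols matched 1 of the 49585 genes. Bulk RNA-seq covered 4 cultured libraries, 1 per condition. HM_Ctrl and HM_DFX are 4T1-HM, a highly metastatic clone, and LM_Ctrl and LM_DFX are 4T1-LM, a lowly metastatic clone. Cells received 50 μmol/L of the chelator deferasirox (DFX) or the solvent DMSO alone for 48 h. Both lines were derived from single cells of the 4T1 mammary tumor line, so each metastatic type is represented by 1 clone, and all libraries come from culture dishes with no host cells.

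Class I molecules display peptides from a cell's own proteins to CD8+ T cells. Proteasomes, in which the immunoproteasome subunits Psmb8, Psmb9 and Psmb10 can take the place of constitutive catalytic subunits, cut proteins into peptides, and Tap1 and Tap2 together carry the peptides into the endoplasmic reticulum. There tapasin (Tapbp) helps load them on a heavy chain such as H2-K1 or H2-D1 that is paired with β2-microglobulin (B2m). Interferons raise most of these genes, and Nlrc5 is a transactivator that acts at class I promoters together with RFX, CREB/ATF and NF-Y proteins.

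Levels are FPKM, fragments scaled by the length of the transcript and by the depth of the library. A fold change is the log2 ratio of FPKM + 1, and a gene was called when it differed at least 2-fold on that scale. With 1 library per condition there is no measure of the spread between cultures, so no test was possible and no p-value is given. Fragment numbers could be recovered from the FPKM at total depths of 14363065 to 21883855 fragments per library. The 95% intervals given here are exact binomial (Clopper-Pearson) intervals of the ratio of those fragments, and they cover counting error only. In RNA of whole cultures, fewer cells of a type and less RNA per cell cannot be told apart. The epithelial markers Epcam, Krt8, Krt18, Krt19 and Cdh1 were all expressed, with a summed FPKM of 1587 without and 531 with DFX in 4T1-HM and 2069 without and 1024 with DFX in 4T1-LM. Of 9 leukocyte markers, none reached an FPKM of 1 in any library (highest 0.382, and 4 of them, including Cd3e, were at 0 throughout), and the same held for 7 stromal markers (highest 0.998). The epithelial sum, made up mostly of Krt8 and Krt18, was lower under DFX in both clones, whereas Krt19 went from 46.4 to 103 FPKM in 4T1-LM (called higher, 1.14). The part of these markers in the values that follow was not tested.

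The genes lie in a few places of the genome. On mm10, 7 of them are on chromosome 17 between the start of Tapbp (33915899) and the end of H2-D1 (35267499). This stretch of 1352 kb is a part of the mouse MHC. B2m (ENSMUSG00000060802) is on chromosome 2, from 122147686 to 122153083. Psmb10 (ENSMUSG00000031897, from 105935735 to 105938444) and Nlrc5 (ENSMUSG00000074151, from 94434356 to 94527272) are on chromosome 8. RefSeq promoter windows, running from 250 bases before to 50 after a gene's RefSeq start, were matched for 8 of the 10 genes. That start can differ from the gene start in the expression data. The windows of Tapbp (33919228 to 33919527), H2-D1, Psmb8 and Psmb9 begin inside the genes as placed in the expression data. Tap2 and Nlrc5 had no window in the table. The 250 bases before the start are shown for both heavy chains, for B2m and for Tap1, the genes with the largest rises under DFX or the highest levels (GRCm38.p6, RefSeq annotation). Each reads 5′ to 3′ along the gene's strand, and capitals mark matches to the motifs named after the sequences. H2-K1 is chr17:34000348-34000597 on the minus strand, H2-D1 is chr17:35262844-35263093 on the plus strand, B2m is chr2:122147437-122147686 on the plus strand and Tap1 is chr17:34187306-34187555 on the plus strand.
H2-K1: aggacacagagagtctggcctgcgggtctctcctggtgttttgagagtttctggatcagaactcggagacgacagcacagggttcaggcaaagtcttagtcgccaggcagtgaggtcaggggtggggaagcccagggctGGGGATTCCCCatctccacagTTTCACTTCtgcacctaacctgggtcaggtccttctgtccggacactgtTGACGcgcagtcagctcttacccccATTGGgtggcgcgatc
H2-D1: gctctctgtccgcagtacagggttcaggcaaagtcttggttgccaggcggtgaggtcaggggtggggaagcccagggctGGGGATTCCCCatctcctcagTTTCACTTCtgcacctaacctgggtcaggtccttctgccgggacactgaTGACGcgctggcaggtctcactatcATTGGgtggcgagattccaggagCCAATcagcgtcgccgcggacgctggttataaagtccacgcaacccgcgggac
B2m: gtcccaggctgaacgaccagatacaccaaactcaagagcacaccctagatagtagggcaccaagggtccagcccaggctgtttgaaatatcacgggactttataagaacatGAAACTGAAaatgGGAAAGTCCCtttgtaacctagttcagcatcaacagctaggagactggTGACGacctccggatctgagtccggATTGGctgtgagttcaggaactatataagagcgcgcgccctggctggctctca
Tap1: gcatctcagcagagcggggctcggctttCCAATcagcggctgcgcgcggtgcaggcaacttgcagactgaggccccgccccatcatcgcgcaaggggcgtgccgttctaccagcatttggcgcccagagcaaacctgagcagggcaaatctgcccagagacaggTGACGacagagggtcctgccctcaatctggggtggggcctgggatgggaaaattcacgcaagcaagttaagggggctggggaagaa

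Motifs were searched on both strands of the whole 300-base window. TGACG, the core that CREB/ATF proteins bind and a part of the X2 box of class I promoters, was found in the windows of 5 of the 8 genes (B2m, H2-K1, H2-D1, Tap1 and Psmb9), against 20.8% of all 32851 promoter windows. CCAAT, the Y box that NF-Y binds, was in 6 of the 8, the same 5 and Tapbp, against 37.4% of all windows. The letters of an interferon response element, GAAANNGAA, were found in B2m alone, against 8.56% of windows, and with the spacer on the other side, GAANNGAAA, in H2-K1 and H2-D1, against 7.52%. Both heavy chains carry this second form as TTTCACTTC, read on the other strand, beginning 90 bases before the start in H2-K1 and 150 in H2-D1. The kappaB consensus was in 3 of the 8 (B2m, H2-K1 and H2-D1), against 4.51% of windows, and in each of the 3 it lies close to the interferon element. In the heavy chains it matched overlapping letters on both strands. A gamma-activated sequence, TTCNNNGAA, was found in Psmb8 only, against 8.3% of windows, and the Psmb10 window held none of these motifs. The GAANNGAAA form and the kappaB consensus were added after the other matches had been seen. The windows of H2-K1 and H2-D1 were identical at 91.2% of their aligned bases (218 bases). Those of Tap1 and Psmb9, which start close to each other on opposite strands, share 275 bases, so a motif inside those bases is counted for both genes. These matches describe the letters of the reference genome and say nothing of which factors were bound.

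A gene counted as expressed when its FPKM reached 1 in any of the 4 libraries, which held for all 10 of these genes and for 12669 genes in all. LM_DFX held the highest level of 8 of them. Psmb10 was highest in LM_Ctrl and Nlrc5 in HM_DFX. The lowest level was in HM_Ctrl for 4 genes, in HM_DFX for 4 and in LM_Ctrl for 2. Of the 30 pairs of neighbours in these orders, 6 had a counting interval that includes no difference, namely HM_DFX and LM_Ctrl for H2-D1, both controls for B2m, both HM libraries for Tapbp and for Psmb9, and for Nlrc5 both LM libraries as well as HM_Ctrl with LM_DFX.

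**Figure D1:**
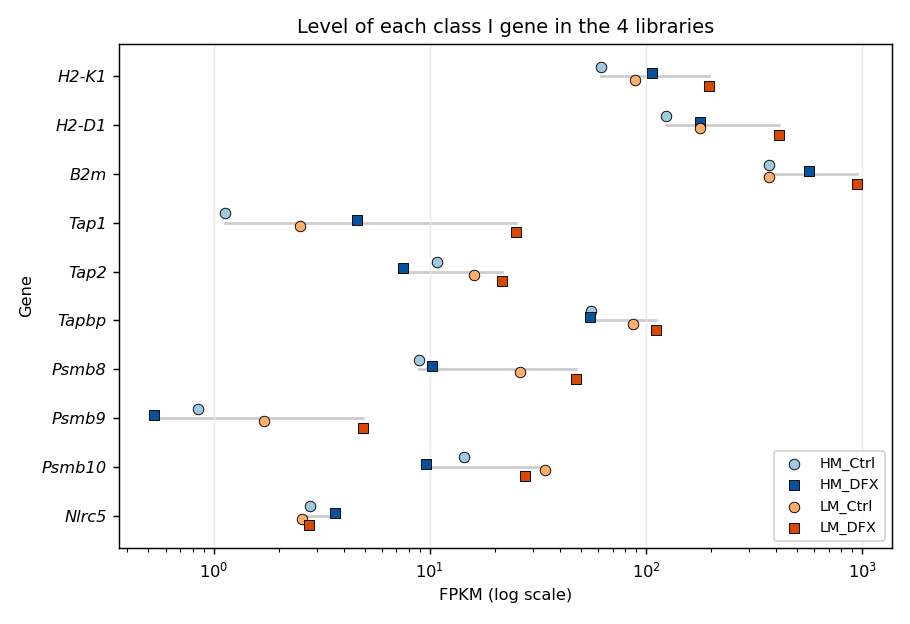
FPKM (log scale) of the 10 class I antigen presentation genes in the 4 libraries, with circles for DMSO, squares for DFX, blue for 4T1-HM and orange for 4T1-LM, set slightly apart in height so that each point can be seen. LM_DFX is the rightmost point for 8 genes, and the span of Tap1, from 1.13 to 25.1, is the widest.

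The classical heavy chains and their light chain were the most abundant of the 10 and were higher under DFX in both clones. H2-K1 (ENSMUSG00000061232, chromosome 17, 33996017 to 34000333) had an FPKM of 61.8 without and 106 with DFX in 4T1-HM and 88.5 without and 195 with DFX in 4T1-LM. H2-D1 (ENSMUSG00000073411, chromosome 17, 35262730 to 35267499) stood at 123, 178, 177 and 413 in the order HM_Ctrl, HM_DFX, LM_Ctrl, LM_DFX. B2m, which every class I heavy chain needs to reach the surface, stood at 372, 565, 371 and 948. The DFX library was above the DMSO library of its clone for each of the 3 genes, and LM_DFX was above every other library.

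In 4T1-HM cells DFX raised none of these 3 past 2-fold. The log2 change was 0.77 for H2-K1 (interval 0.70 to 0.85), 0.53 for H2-D1 (0.48 to 0.58) and 0.60 for B2m (0.55 to 0.65). In 4T1-LM cells all 3 passed it, with 1.13 for H2-K1 (1.09 to 1.19), 1.22 for H2-D1 (1.18 to 1.26) and 1.35 for B2m (1.31 to 1.40). With DMSO the clones did not differ in B2m beyond counting error, at a log2 difference of 0.00 (−0.05 to 0.06), while H2-K1 and H2-D1 were lower in 4T1-HM by 0.51 and 0.52 on the log2 scale. Under DFX the difference of H2-D1 between the clones passed 2-fold, at −1.21, and those of H2-K1 (−0.88) and B2m (−0.75) did not. The ratio of B2m to the summed heavy chains was 2.01 and 1.99 in the HM libraries and 1.4 and 1.56 in the LM libraries, without and with DFX. The ratio of H2-D1 to H2-K1 lay between 1.68 in HM_DFX and 2.12 in LM_DFX.

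Reads from the heavy chains cannot be fully told apart. Of the 31-base words of the H2-K1 transcripts 22.8% also occur in other genes (11.1% in H2-D1), and for H2-D1 the share is 26.7%. The 4T1 line comes from BALB/c mice, which carry the H-2d haplotype, whereas the reference genome is that of C57BL/6J, with H-2b, so that reads from the polymorphic exons may be lost or assigned to a neighbouring gene. Levels of the heavy chains relative to one another are uncertain for this reason, while B2m shares no such word with another gene.

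The peptide transporter held the largest response of the 10 and also a contrast within its pair. Tap1 (ENSMUSG00000037321, chromosome 17, 34187553 to 34197225) had an FPKM of 1.13 without and 4.63 with DFX in 4T1-HM and 2.51 without and 25.1 with DFX in 4T1-LM, from 104, 364, 216 and 3009 fragments. Both DFX libraries were above both DMSO libraries. Tap1 was the only gene of the 10 called in both clones, at 1.40 in 4T1-HM and 2.90 in 4T1-LM on the scale of FPKM + 1. Because the added 1 weighs on a gene this low, the ratio of the fragments themselves was larger, 2.03 (1.71 to 2.36) and 3.32 (3.12 to 3.53) on the log2 scale, or 4.08-fold and 10-fold in FPKM. The clones differed in Tap1 by −0.72 with DMSO, which passed 2-fold with a pseudocount of 0.1 (−1.08) and on the fragments (−1.14, interval −1.50 to −0.80), and by −2.21 under DFX.

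Tap2, the partner without which Tap1 does not transport peptides, was not called with DFX in either clone. Tap2 (ENSMUSG00000024339, chromosome 17, 34203527 to 34216321) had an FPKM of 10.8 without and 7.55 with DFX in 4T1-HM and 16 without and 21.5 with DFX in 4T1-LM. The DFX library was thus the lower of the HM pair and the higher of the LM pair, at log2 changes of −0.47 (interval −0.70 to −0.34) and 0.41 (0.32 to 0.55), with the same 2-fold line not reached. Set against Tap1, Tap2 was 9.53 times as abundant in HM_Ctrl and 6.37 times in LM_Ctrl, but 1.63 times in HM_DFX and 0.857 times in LM_DFX, where Tap1 was the more abundant of the pair. Under DFX Tap2 was called lower in 4T1-HM than in 4T1-LM, at −1.40.

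Tapbp, the loading factor that bridges the transporter and the heavy chain, had the narrowest range among the 7 genes on chromosome 17. Tapbp (ENSMUSG00000024308, 33915899 to 33929288) stood at 55.9, 55.2, 86.9 and 111 FPKM in HM_Ctrl, HM_DFX, LM_Ctrl and LM_DFX. Both LM libraries were above both HM libraries. Its response was −0.02 in 4T1-HM (−0.09 to 0.06), which became 0.12 when the libraries were scaled by their median ratio, and 0.35 in 4T1-LM (0.30 to 0.41). The difference between the clones under DFX was 2.02-fold in FPKM, which fell just short of a call once 1 was added, and −1.01 on the log2 scale of the fragments.

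**Figure D2:**
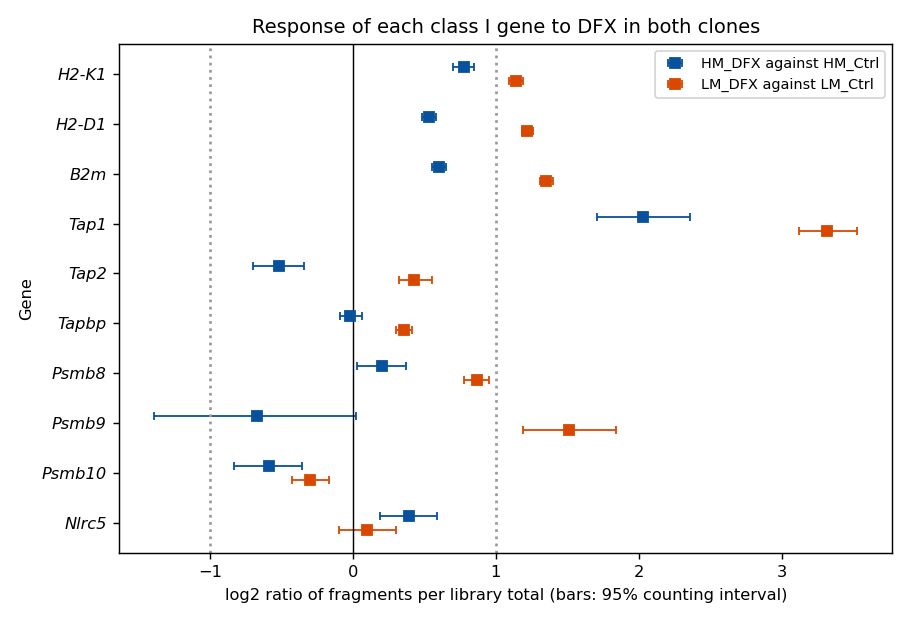
Log2 ratio of recovered fragments per library total, DFX against DMSO, for each gene in 4T1-HM (blue) and 4T1-LM (orange) cells, with bars for the 95% counting interval and dotted lines at 2-fold. The orange point lies to the right of the blue point for every gene but Nlrc5, and the Tap1 points, at 2.03 and 3.32, lie farthest right in each clone.

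The 3 immunoproteasome subunits each followed their own pattern under DFX, and each was lower in 4T1-HM than in 4T1-LM with DMSO as well as with DFX. Psmb8 (ENSMUSG00000024338, chromosome 17, 34197721 to 34201454) had an FPKM of 8.91 without and 10.2 with DFX in 4T1-HM and 26 without and 47.4 with DFX in 4T1-LM. Psmb9 (ENSMUSG00000096727, chromosome 17, 34181988 to 34187764) was the scarcest, at 0.849, 0.533, 1.72 and 4.9, from 52, 28, 99 and 392 fragments. Psmb10 stood at 14.4, 9.56, 34.1 and 27.7. Both LM libraries were above both HM libraries for all 3 subunits, and for Psmb10 the DFX library was the lower of each pair.

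The DFX response of Psmb8 was 0.18 in 4T1-HM and 0.84 in 4T1-LM (0.78 to 0.95), neither of them called. The transcript length used for Psmb8 could be fixed only up to a common factor, and only a limited range of lengths was searched. The interval of the 4T1-HM response, 0.03 to 0.37, became −0.05 to 0.45 at the shortest fitting length in that range. Psmb9 was called in 4T1-LM only, at 1.12, and its change in 4T1-HM was −0.27, with a fragment interval of −1.39 to 0.02 that includes no change. Psmb10 changed by −0.54 in 4T1-HM (−0.83 to −0.36) and −0.29 in 4T1-LM (−0.43 to −0.17), below 2-fold. With DMSO the clones differed in Psmb8 by −1.45 and in Psmb10 by −1.19, both called, and in Psmb9 by −0.56. Under DFX all 3 were called lower in 4T1-HM, at −2.11 for Psmb8, −1.94 for Psmb9 and −1.45 for Psmb10. Psmb9 was below Tap1 in every library, and the added 1 hid much of its difference between the clones under DFX. That difference was 9.19-fold in FPKM and −3.20 on the fragments (−3.81 to −2.65), the largest of the 10 genes in that comparison.

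Each immunoproteasome subunit has a constitutive counterpart whose place it takes, which gives a ratio within a library. Psmb8 amounted to 12.2% of Psmb5 without and 22% with DFX in 4T1-HM and 29.5% without and 74.3% with DFX in 4T1-LM. Psmb9 amounted to 1.48%, 0.927%, 2.42% and 8.53% of Psmb6, and Psmb10 to 34.2%, 21.2%, 58.6% and 49.2% of Psmb7, in the same order. The ratio of Psmb8 was higher with DFX in both clones, that of Psmb9 in 4T1-LM alone and that of Psmb10 in neither. Psmb5 itself was lower with DFX, at 73 and 46.6 FPKM in the HM pair and 88.2 and 63.8 in the LM pair, and so added to the shift in the ratio. Summed over the 3 pairs, the ratio was 14% without and 13.6% with DFX in 4T1-HM and 28.4% without and 45.1% with DFX in 4T1-LM. These ratios of RNA do not measure assembled proteasomes.

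**Figure D3:**
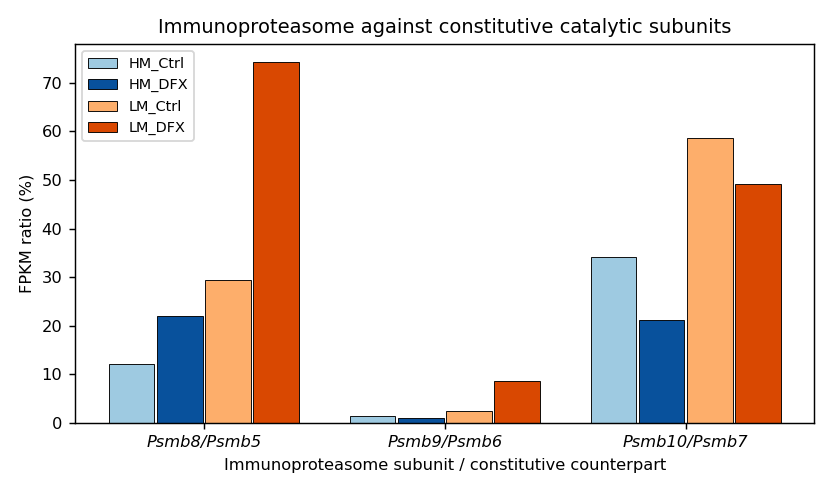
FPKM of each immunoproteasome subunit as a percentage of its constitutive counterpart, 1 bar per library. Psmb8 over Psmb5 reaches 74.3% in LM_DFX from 29.5% in LM_Ctrl, Psmb9 stays at or below 8.53% of Psmb6, and Psmb10 over Psmb7 is lower with DFX in both clones.

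Nlrc5, the transactivator of the class, had the narrowest range of the 10 (1.43-fold from lowest to highest), at an FPKM of 2.78 without and 3.66 with DFX in 4T1-HM and 2.56 without and 2.75 with DFX in 4T1-LM. Its response was 0.30 in 4T1-HM (0.19 to 0.59 on the fragments) and 0.07 in 4T1-LM (−0.10 to 0.30). It was the only gene of the 10 with a larger response in 4T1-HM, and the only one higher in 4T1-HM than in 4T1-LM under DFX (0.31).

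Counted over the 10 genes, 1 was called higher and 0 lower with DFX in 4T1-HM, against 6.93% of all expressed genes called higher and 12.4% called lower (8.9% and 10.1% after median-ratio scaling), with a median of 0.24 beside −0.10 over all genes. In 4T1-LM 5 were called higher (H2-K1, H2-D1, B2m, Tap1 and Psmb9) and 0 lower, where 7.09% of all genes were called higher and 8.72% lower, with medians of 0.98 and −0.04. Between the controls 0 were higher and 2 lower in 4T1-HM (Psmb8 and Psmb10), where 3.65% and 3.15% of all genes were called, with medians of −0.54 and 0.01. Under DFX 0 were higher and 6 lower in 4T1-HM (H2-D1, Tap1, Tap2, Psmb8, Psmb9 and Psmb10), where 3.31% and 5.05% of all genes were called, with medians of −1.31 and −0.05. The response in 4T1-HM minus that in 4T1-LM was below 0 for 9 of the 10, and below it by 2-fold or more for Tap1 (−1.50) and Psmb9 (−1.39, or −2.04 with a pseudocount of 0.1), where 3.52% of all genes were above and 5.38% below by that much, with medians of −0.68 and −0.08. The comparisons share libraries, so these counts are not separate evidence, and no test of the differences between them could be made.

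The other genes of the MHC stretch of chromosome 17 give the local background of the 7 class I genes in it. The stretch holds 147 genes, of which 65 were expressed. Class I heavy chains of the Q, T and M families, read below, lie beyond H2-D1 and outside this stretch. Of the 58 expressed genes there that are not among the 10, 6 (10.3%) were called higher and 7 (12.1%) lower with DFX in 4T1-HM, with a median of −0.19, and 5 (8.62%) and 4 (6.9%) in 4T1-LM, with a median of 0.01. The 7 class I genes had medians of 0.18 and 1.12. The pseudogene H2-K2, next to H2-K1, was among the genes called higher in both clones. Tap1 and Psmb9 overlap by 212 exon bases on opposite strands, and whether the counting used strand is not given in the sources used here, so some fragments of either gene may belong to the other. Exons of Tapbp (904 bases), Tap2 (533), Psmb8 (498) and Nlrc5 (78) likewise overlap another gene on the opposite strand.

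**Figure D4:**
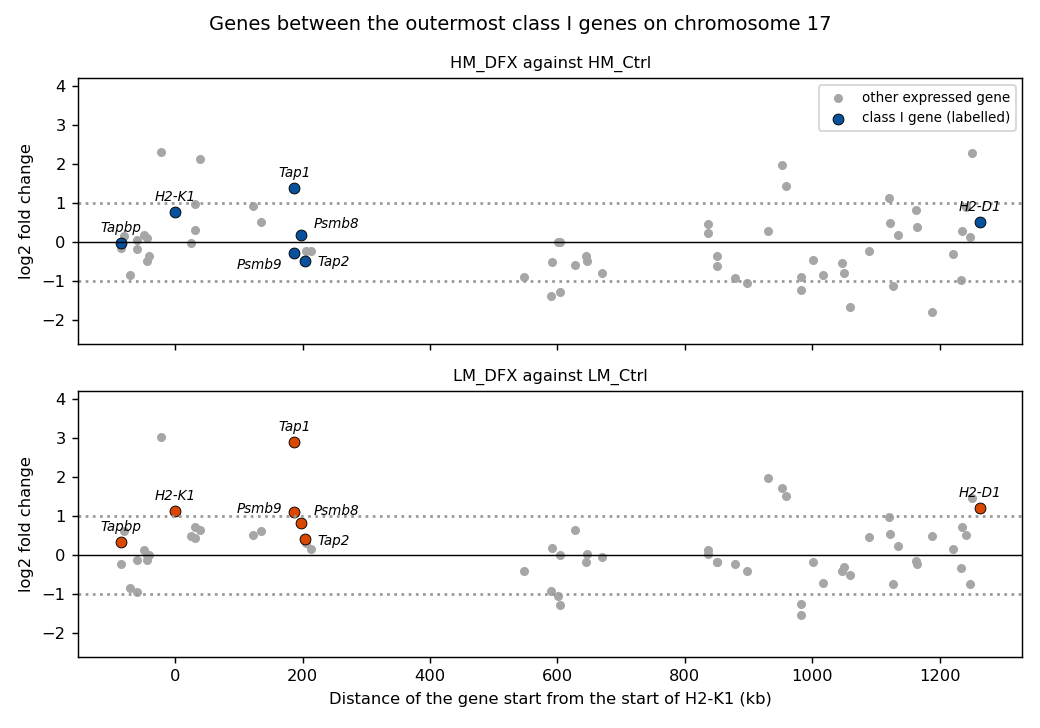
Log2 fold change of FPKM + 1 of the expressed genes in the MHC stretch against the distance of the gene start from that of H2-K1, in 4T1-HM (upper panel) and 4T1-LM cells (lower panel), with labelled class I genes, other genes in grey and dotted lines at 2-fold. In the lower panel 4 of the 7 labelled genes lie above the upper dotted line, beside 5 of 58 grey points.

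Several other class I heavy chains were also higher with DFX. Of 15 such genes, which include the nonclassical Q, T and M families, 13 were expressed. In 4T1-HM 2 of these were called higher with DFX (median 0.49), against 6.93% of all expressed genes. In 4T1-LM 8 were (median 1.42), against 7.09%, with 0 called lower in either clone. The added 1 weighs on the scarce genes of this list. In 4T1-HM it alone kept H2-Q2 (2.39-fold in FPKM), H2-Q7 (2.94), H2-Q10 (2.77) and H2-Bl (2.18) from a call. In 4T1-LM it did so for H2-Q10 (3.09). H2-T23, which encodes Qa-1 and presents leader peptides of other class I chains to NK cells, had an FPKM of 13.7, 17.9, 11 and 48.3 in HM_Ctrl, HM_DFX, LM_Ctrl and LM_DFX. It was called in 4T1-LM (2.04) and not in 4T1-HM (0.36). H2-Q4 stood at 31.8, 54.1, 42.5 and 120 and H2-Q6 at 5.18, 13.6, 12.3 and 59.9. Only H2-Q6 of these was called in both clones, at 1.24 and 2.19, as was the pseudogene H2-K2, at 2.31 and 3.04. Sequence shared with other genes was 24.5% for H2-T23, 38.4% for H2-Q4 and 50.3% for H2-Q6, so these levels carry the same uncertainty as those of H2-K1 and H2-D1. H2-M3, which presents formylated peptides, was not called in either clone (−0.56 and 0.48).

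Proteins that share the class I fold but do not present peptides of the cell's own proteins were read beside them. Of 7 such genes 4 were expressed, with medians of −0.68 with DFX in 4T1-HM and −0.37 in 4T1-LM. Hfe, a class I-like protein of the iron-sensing pathway that pairs with β2-microglobulin, was the only gene of the 4 called with DFX against DMSO. It was lower in 4T1-HM, at an FPKM of 1.67 in HM_Ctrl and 0.331 in HM_DFX. Mr1 (3.02-fold lower in FPKM) and Cd1d1 (2.06-fold lower) missed that call in 4T1-HM only through the added 1. Between the clones, Cd1d1 was called higher in HM_Ctrl than in LM_Ctrl (1.23) and Procr higher in HM_DFX than in LM_DFX (1.22). In 4T1-LM Hfe stood at 2.05 and 1.19.

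Proteins that are shared with other pathways of protein folding and breakdown showed few calls. Among 11 genes of peptide trimming and loading, Hspa5, the main chaperone of the endoplasmic reticulum, was the only gene called with DFX against DMSO, at 2.12 in 4T1-HM and 1.16 in 4T1-LM. Calr, a chaperone of the loading complex, was called higher in HM_DFX than in LM_DFX (1.39). The list medians were 0.23 and 0.03. Tapbpl, a relative of tapasin that edits peptides, stood at 6.5, 7.79, 7.68 and 15.9 FPKM and reached 0.96 in 4T1-LM, just under 2-fold. None of the 3 constitutive catalytic subunits, the 11 other core 20S subunits or the 9 proteasome activators and assembly factors was called with DFX in either clone. Their medians were 0.00, −0.07 and 0.06 in 4T1-HM and −0.30, −0.24 and −0.07 in 4T1-LM. With DMSO, like the immunoproteasome subunits, all 3, all 11 and 8 of the 9 were lower in 4T1-HM than in 4T1-LM. The medians of that difference were −0.30, −0.35 and −0.42, and 0 of these genes were called in it. Psme1 and Psme2, which form the PA28 activator that interferon induces, changed by −0.69 and −0.57 in 4T1-HM and by −0.09 and −0.07 in 4T1-LM. Between the DFX libraries, Psme1 was called lower in 4T1-HM than in 4T1-LM (−1.13), and Psme2 was not called (−0.91).

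Of 13 factors known to act at class I promoters, 3 were called higher with DFX in 4T1-HM (Irf1, Rela and Atf1), and 0 were called lower in either clone. The list medians were 0.39 in 4T1-HM and 0.18 in 4T1-LM. Irf1, the interferon regulatory factor that binds the interferon element, was called in both, at 14.6 and 30.6 FPKM in HM_Ctrl and HM_DFX (1.02) and 21.2 and 54.1 in LM_Ctrl and LM_DFX (1.31). Rela, an NF-kappaB subunit, was also called in both (1.61 and 1.90). Atf1 was called in 4T1-HM at 1.13 (0.72 in 4T1-LM). The RFX subunits that cooperate with Nlrc5 (Rfx5, Rfxap and Rfxank) were not called with DFX in either clone. Rfxank missed a call in 4T1-HM (−0.80) only through the added 1. Its FPKM was 3.34 without and 1.49 with DFX, 2.24-fold lower, and −1.16 on the fragments (−1.54 to −0.80).

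A list of 16 interferon-stimulated genes outside antigen presentation was read in the same way. All 16 were called higher with DFX in 4T1-LM (median 4.00) and 13 in 4T1-HM (median 2.45), and all 16 had the larger response in 4T1-LM. These medians lay above those of the 10 class I genes (0.98 and 0.24), and no test between the lists was made. Of 7 MHC class II genes 5, among them H2-Ab1, H2-Aa and the class II transactivator Ciita, were not expressed in any library. Cd74, the invariant chain that guides class II molecules, stood at 0.593, 1.43, 16 and 28.1 FPKM in HM_Ctrl, HM_DFX, LM_Ctrl and LM_DFX and was called lower in 4T1-HM with DMSO (−3.42) and under DFX (−3.58). H2-DMa, a class II peptide exchanger, was not called in any comparison and differed the other way between the clones (0.95 and 0.84). It missed these 2 calls only through the added 1, being 2.48-fold higher in 4T1-HM in FPKM with DMSO and 2.03-fold under DFX.

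**Figure D5:**
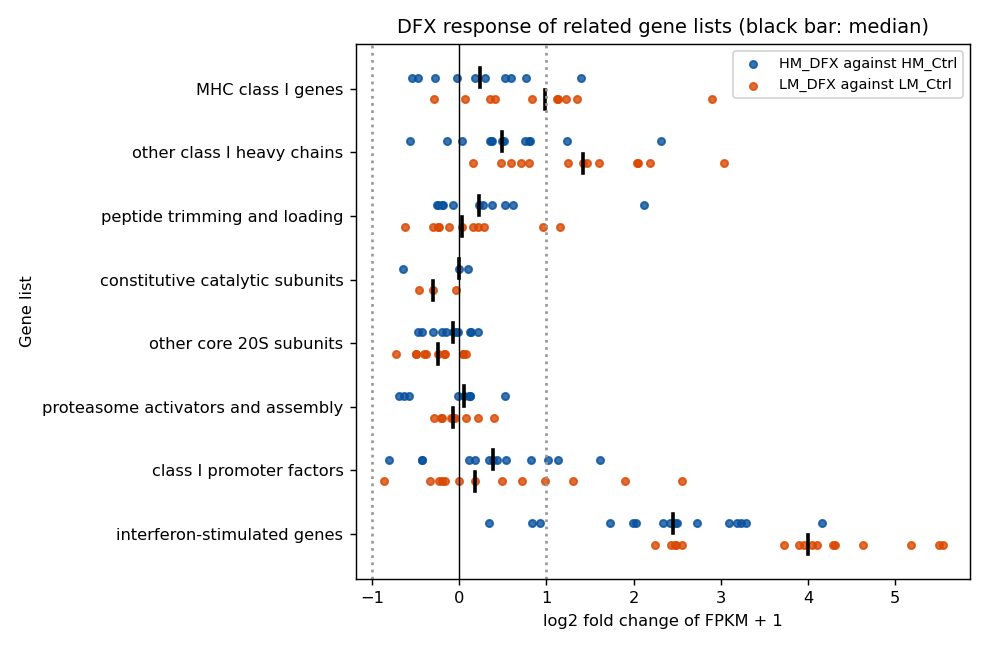
Log2 fold change of FPKM + 1 with DFX for each expressed gene of 8 lists in 4T1-HM (blue) and 4T1-LM cells (orange), with a black bar at the median and dotted lines at 2-fold. The medians of the 10 class I genes (0.24 and 0.98) and of the other class I heavy chains (0.49 and 1.42) are higher in 4T1-LM, as are those of the interferon-stimulated genes (2.45 and 4.00), whereas the constitutive proteasome lists lie near 0.

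Averaged over the 10 genes and centred on each gene's mean, log2(FPKM + 1) was −0.59 without and −0.34 with DFX in 4T1-HM, and 0.01 without and 0.92 with DFX in 4T1-LM. H2-D1 was closest to this mean profile, with a root mean square difference of 0.15 over the 4 libraries, and Tap1 (0.85), Nlrc5 (0.64) and Psmb10 (0.54) were farthest. Among 7438 other protein-coding genes with a mean FPKM of at least 5, the nearest profiles were those of Cd82 (0.03), Bhlhe40 (0.07), St6galnac4 (0.08), Rps27 (0.09) and H2-T22 (0.10). Of these 5, only H2-T22 is a class I gene. Likeness over 4 libraries is a description and carries no test.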

How the data were processed

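RNA was sequenced from 4 cultures, 1 per condition, grouped by their labels. Per the labels, the methods and the submitters' processing notes, the authors checked reads with FastQC, trimmed them with Trimmomatic, aligned them to mm10 with HISAT2 and used featureCounts, and they deposited FPKM for 49585 genes. Tool versions and the use of strand in counting are not given in the sources used here. The genes and lists were chosen with earlier results of these data known.

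Fold changes are log2 ratios of FPKM + 1 (pseudocount 1). A gene was kept when any library reached an FPKM of 1, and 2-fold changes were called. Because 1 library per condition leaves no spread, no p-value was computed. The coordinates of 45125 genes equal those of GENCODE M21. With its exon lengths, FPKM turned back into whole fragments (within 0.02) in all 4 libraries for 96.8% of 18235 such genes above 0. Lengths of H2-K1, Tapbp, Psmb8 and Psmb9 were solved from their values. Intervals are Clopper-Pearson at 95% (SciPy 1.17.1).

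Every gene of the 10 was named, along with genes of the related lists that passed 2-fold in a comparison or are constitutive subunits, activators or promoter factors, and the 5 nearest profiles. Tapbpl and genes named for opposite responses in the clones were chosen after their values were seen. Calling was tested on simulated data. Other pseudocounts, filters, scalings and thresholds were tried. Results for some listed genes are not reported here.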

Additional observations from a re-analysis of the deposited data

Results flagged for a closer look

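Some genes had opposite DFX responses in the clones, with both counting intervals away from no change. With single libraries, no test of these differences could be made, so they are untested. Tap2 was the only such gene among the 10, with a response in 4T1-HM minus that in 4T1-LM of −0.87 (−0.47 against 0.41). The heavy chain H2-M3 gave −1.04 (−0.56 against 0.48), and the class I-like Procr, the endothelial protein C receptor, gave 1.37 (0.73 against −0.65). In the loading machinery the chaperone Calr gave 1.24 (0.62 against −0.62), Pdia3 gave 0.62 (0.38 against −0.24), Uggt1 gave −0.47 (−0.25 against 0.22) and Ganab gave −0.34 (−0.18 against 0.16). Proteasome genes differed less, at 0.30 for Psma1 (0.14 against −0.16), −0.11 for Psmb1 (−0.07 against 0.04, but 0.07 against 0.09 after median-ratio scaling, and so no longer opposite), 0.31 for Psme3 (0.11 against −0.21) and 0.41 for Psme4 (0.12 against −0.29). Among promoter factors Nfya gave 1.03 (0.18 against −0.86), Nfkb1 gave 0.55 (0.39 against −0.16) and Creb1 gave 0.31 (0.11 against −0.19). Scaling was tried on these genes after the values had been seen, and the other 13 kept opposite signs under median-ratio scaling, as all 14 did when scaled to the 75th percentile. The epithelial marker Krt19 met the same rule, at −1.33 (−0.19 against 1.14), but was not among these 14. At these depths even small ratios of abundant genes leave the counting interval, which says nothing of the variation between cultures.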

How the results depend on the processing

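The counts of called class I genes and their medians kept their direction under every alternative run, and the counts moved with the threshold and the pseudocount. At 1.5-fold, 3 of the 10 genes were called higher with DFX in 4T1-HM, against 16% of all expressed genes. At that threshold 4 were lower in HM_Ctrl than in LM_Ctrl, against 8.7%. At 4-fold, 0 were called higher with DFX in 4T1-HM and 1 in 4T1-LM, against 0.876% and 1.42%. Also at 4-fold, 0 were lower in HM_Ctrl than in LM_Ctrl and 2 in HM_DFX than in LM_DFX, against 0.434% and 0.466%. With a pseudocount of 0.1, 3 genes were lower in HM_Ctrl than in LM_Ctrl (Tap1 joined), against 5.32% of all expressed genes. At that pseudocount 7 were lower in HM_DFX than in LM_DFX (Tapbp joined), against 9.34%. Scaling by median ratios or by the 75th percentile, protein-coding genes alone, and a filter on the mean FPKM or none at all left these counts as they were. Of values of single genes and ratios, 295 kept their size and 27 moved, none with a change of sign among called values. Among the 10 genes scaling turned the sign of 2 small differences, Tapbp with DFX in 4T1-HM (−0.02 to 0.12) and B2m between the controls (0.00 to −0.01). No paired analysis was possible because each condition has 1 library and the comparisons come from no test. Leaving out a replicate was not possible for the same reason. A planned comparison of the H2-K1 and H2-D1 proteins was not run. Depth limits Psmb9, which rests on 28 to 392 fragments.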
